A study of Mus musculus with 24 samples.

Results

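The dystrophin complex anchors the cytoskeleton of a muscle fiber, through its membrane, to the basement membrane outside. Dystrophin and its relative utrophin bind actin under the sarcolemma, dystroglycan spans the membrane and holds laminin, the sarcoglycans and sarcospan form a subcomplex beside it, and dystrobrevin and the syntrophins bind dystrophin in the cytoplasm. Loss of dystrophin causes Duchenne muscular dystrophy and loss of a sarcoglycan a limb-girdle dystrophy, while utrophin in healthy adult fibers is concentrated at the neuromuscular and myotendinous junctions. The genes described here are 8 of the 55487 genes counted, chosen by name for their place in the complex, namely Dmd, Utrn, Dag1, Sgca, Sgcb, Sgcd, Dtna and Sspn. Each was found by matching its Ensembl identifier to a mouse gene symbol of GENCODE M21, and all 8 had enough counts to be tested in every comparison.

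Tibialis anterior muscle of 24 wild-type male C57BL/6J mice, 5 to 7 weeks old, was studied by poly(A) RNA sequencing, in 4 groups of 6 mice, that is, sedentary or fatigued mice with PBMT or as controls. PBMT is photobiomodulation therapy, here 830 nm light at 25 mW/cm2 to a fluence of 30 J/cm2 over 20 min, given to shaved lower limbs under anesthesia. Control mice were shaved and kept under anesthesia for 20 min without light, and muscle was dissected 24 h after PBMT. Fatigued mice ran on a treadmill to exhaustion just before dissection, and the sedentary and fatigued mice were sequenced as 2 projects, so that exercise state and project cannot be told apart. Each mouse had a total of 43271093 to 46904076 counts in sedentary controls, 46327516 to 52775844 in sedentary PBMT mice, 56792327 to 68726155 in fatigued controls and 53122528 to 68566029 in fatigued PBMT mice. Sgcd, the member with the fewest counts, had 358 to 1150 per mouse, so counting error was small for all 8 beside the spread between mice. The tissue label was checked against markers fixed as lists. The fast fiber gene Myh4 was at 16211 TPM (counts per kb of exon, scaled to the same total in each mouse) and Acta1, which slow fibers express too, at 43250 TPM, whereas Myl3, the most abundant of the slow fiber genes, was at 53.1 TPM.

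The members differ widely in size, which matters for what follows. Dmd, which encodes dystrophin (ENSMUSG00000045103), lies at chrX:82948870-85206141 of GRCm38 on the plus strand and has 14 annotated transcripts, the longest of 14.9 kb. Utrn, for utrophin (ENSMUSG00000019820), lies at chr10:12382188-12869365 on the minus strand, and its longest transcript has 12.4 kb. Dag1, which encodes both chains of dystroglycan (ENSMUSG00000039952), lies at chr9:108204634-108263958 on the minus strand with a longest transcript of 5.66 kb. The sarcoglycan genes have shorter transcripts than these 3. Sgca, for alpha-sarcoglycan (ENSMUSG00000001508), lies at chr11:94962791-94976327 on the minus strand and has the shortest transcript of the 8, at 1.72 kb. Sgcb, for beta-sarcoglycan (ENSMUSG00000029156), lies at chr5:73632749-73647790 on the minus strand, with 3.79 kb. Sgcd, for delta-sarcoglycan (ENSMUSG00000020354), lies on the same chromosome as Sgca, at chr11:46896253-47988969 on the minus strand, with 4.45 kb. Dtna, for alpha-dystrobrevin (ENSMUSG00000024302), lies at chr18:23415135-23659715 on the plus strand, with 6.30 kb. Sspn, for sarcospan (ENSMUSG00000030255), lies at chr6:145931641-145965223 on the plus strand, with 4.51 kb. Dtna overlaps an antisense gene, Gm47898, with a median of 100.5 counts per mouse, and because the strand setting of the counting is not given in the sources used here, reads of the pair cannot be told apart with certainty. Genes overlapping the other members had a median of at most 6 counts.

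Per length of exon, Sgca had the highest level of the 8, at 211 ± 20.6 TPM (SD, n = 24 mice). Dag1 at 96.4 ± 12.4 TPM and Sgcb at 96.1 ± 7.45 TPM came next in level (SD, n = 24 each). Over all mice the pair differed by less than its SD, but the order went with the project, with Dag1 above Sgcb in 2 of 12 sedentary and 10 of 12 fatigued mice. Sspn followed at 56.4 ± 4.31 TPM, Dtna at 16.7 ± 1.36 TPM and Dmd at 11.5 ± 2.06 TPM (SD, n = 24 each). Dtna was above Dmd in 24 of 24 mice, although the ranges of the pair overlap. Utrn at 5.33 ± 0.870 TPM and Sgcd at 4.52 ± 1.25 TPM had the lowest levels (SD, n = 24 each). The order of these last genes depends on the project and on the length used. Per length of all exons Utrn was above Sgcd in 4 of 12 sedentary and 12 of 12 fatigued mice, and per length of the longest transcript in 1 of 12 and 8 of 12. Measured per longest transcript, Dtna stood at 37.0 TPM and the other levels ran from 6.07 TPM in Utrn to 175 TPM in Sgca. The count of a gene sums all its isoforms, short dystrophins included.

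Of 10 further partners of the complex described here, 7 had enough counts to be tested. Of these, Cav3 (caveolin 3) had a level of 96.3 TPM and Nos1 (neuronal nitric oxide synthase, which docks on the complex) of 43.7 TPM. The other partners tested had levels of 3.75 TPM (Sntb1), 1.80 TPM (Sntb2), 1.71 TPM (Drp2, dystrophin-related protein 2), 1.37 TPM (Sgce, epsilon-sarcoglycan) and 0.266 TPM (Dtnb, beta-dystrobrevin). Sgcz (zeta-sarcoglycan) and Sntg1 had 0 counts in all 24 mice, and Sntg2 had 1 to 19.

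Utrn stood below Dmd in all 24 mice. The ratio of Utrn to Dmd in TPM was 0.418 ± 0.040 in sedentary controls and 0.403 ± 0.044 in sedentary PBMT mice (SD, n = 6 each). In the fatigued project the ratio was 0.515 ± 0.054 in controls and 0.558 ± 0.109 with PBMT (SD, n = 6 each). Over all 24 mice it was 0.474 per length of exon and 0.410 per longest transcript. The other members were compared with Dmd in the same way, as a description without a test. Relative to Dmd in TPM, Sgca stood at 19.1 ± 4.43, Dag1 at 8.61 ± 1.71 and Sgcb at 8.57 ± 1.28 (SD, n = 24 each). Sspn stood at 5.06 ± 0.919, Dtna at 1.49 ± 0.220 and Sgcd at 0.391 ± 0.078 (SD, n = 24 each). These ratios depend on the length used: per longest transcript they were 12.0 for Sgca, 6.06 for Dag1, 5.75 for Sgcb, 3.51 for Sspn, 2.51 for Dtna and 0.454 for Sgcd. The Sgca ratio ran from 13.2 to 29.5 between mice, a wider relative range than the 174 to 248 TPM of Sgca itself.

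Whether PBMT shifts the complex in resting muscle is asked by comparing sedentary PBMT mice with sedentary controls. Levels are given here in CPM, counts scaled by the TMM-normalized library size of the mouse, which compare mice for 1 gene but not genes with each other. Dmd had 71.6, 105.0 and 133 CPM as lowest, median and highest in controls and 100.4, 117 and 129 CPM with PBMT. The highest and the lowest mouse were both controls, and the groups overlapped. The Dmd log2 fold change was 0.19 (SE 0.12, edgeR 95% confidence interval -0.06 to 0.45), with a mean of 102 ± 21.3 CPM in controls and 116 ± 10.7 CPM with PBMT (SD, n = 6 each). Utrn had 23.1, 30.4 and 35.5 CPM in controls and 30.1, 33.9 and 36.0 CPM with PBMT, as lowest, median and highest. Only 1 PBMT mouse lay above all controls, and the Utrn log2 fold change was 0.16 (interval -0.03 to 0.34).

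Dag1, the link to laminin, had 180.03, 214 and 236 CPM as lowest, median and highest in sedentary controls and 214, 234 and 256 CPM with PBMT. Its 3 highest PBMT mice lay above all controls. The Dag1 log2 fold change was 0.16 (SE 0.075, interval -0.00 to 0.32). Sgcd had 8.04, 15.6 and 18.3 CPM in controls and 14.0, 18.4 and 21.9 CPM with PBMT. This sarcoglycan gene varied most between mice for its level, and again 3 PBMT mice lay above all controls. Its log2 fold change of 0.33 was the largest of the 8 in this comparison, with an interval from -0.01 to 0.68, and it fell to 0.18 with the trend on GC content removed and to 0.21 without sedentary control 3.

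Sgca ran from 126 to 155 CPM in sedentary controls and from 126 to 143 CPM with PBMT, and its log2 fold change was -0.03 (interval -0.16 to 0.10). It was the single member that was lower in mean with PBMT. Sgcb ran from 130 to 165 CPM in controls and from 144 to 184 CPM with PBMT, a log2 fold change of 0.13. Dtna ran from 101 to 124 CPM in controls and from 114 to 125 CPM with PBMT, a log2 fold change of 0.10. Sspn ran from 82.8 to 121 CPM in controls and from 109 to 124 CPM with PBMT, a log2 fold change of 0.13. In each of these genes the groups overlapped.

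No member was called in sedentary muscle at an adjusted p under 0.05 in edgeR (0 of 8, where 0.0282% of the 14177 genes tested were called). At an unadjusted p under 0.05, 0 of 8 passed in edgeR against 7.63% of all genes. DESeq2 called 0 with 2 at an unadjusted p. The share of all genes passing that threshold in DESeq2 is not given here, so the 2 cannot be set against it. The groups overlapped in all 8 members, where 0.480% of all genes did not overlap. The smallest adjusted p among members was 0.648 (Dag1 and Sgcd). The 4 genes called were Ccn1, Egr1, Cited2 and Nfil3, none of them in the complex or its partners, and they are named after their values were seen. The intervals show what these data can and cannot limit: for Dmd they reach from 0.958-fold to 1.36-fold and for Sgcd from 0.996-fold to 1.597-fold. Fewer cells of a type and less RNA per cell cannot be told apart in such bulk samples. In direction, 7 of 8 members were higher with PBMT, with a median log2 fold change of 0.14, where 49.6% of all genes were higher and the median was -0.00. Without a single mouse, 6 of 8 log2 fold changes fell by more than 1.5 times, and 0 changed sign.

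These directions have to be read beside transcript length, since the log2 fold change with PBMT in sedentary muscle went with length over all genes. The median log2 fold change was higher in each longer class of transcripts, from -0.12 below 1 kb to 0.11 at 8 kb and over, and Spearman's rho between length and log2 fold change was 0.326 across 14170 genes, which are not independent replicates. With the trend on length removed in each mouse, the members' median log2 fold change was 0.09 and 8 of 8 were higher. With the trend on GC content removed it was 0.12, again with 8 of 8 higher, and Sgca crossed 0 in both cases, to 0.03 and 0.04. Whether length had a part in the members' differences was not tested beyond these fits. In fatigued muscle the length trend was near 0, at a rho of -0.017.

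The partners showed mixed directions in sedentary muscle. Of the 7 tested, 5 were higher and 2 lower with PBMT, and 0 were called by edgeR or passed an unadjusted p under 0.05. The log2 fold changes were 0.35 for Drp2, 0.34 for Sntb1 and 0.29 for Nos1, each with an interval that includes 0, and without 1 mouse they fell to as little as 0.12, 0.19 and 0.18. Cav3 at -0.15 and Dtnb at -0.07 were lower, and Sntb2 at 0.08 and Sgce at 0.01 lay near 0. Sedentary control 4 had the highest Cav3 and the lowest Sntb2 of its group, and without it the Cav3 log2 fold change was -0.02.

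**Figure D1:**
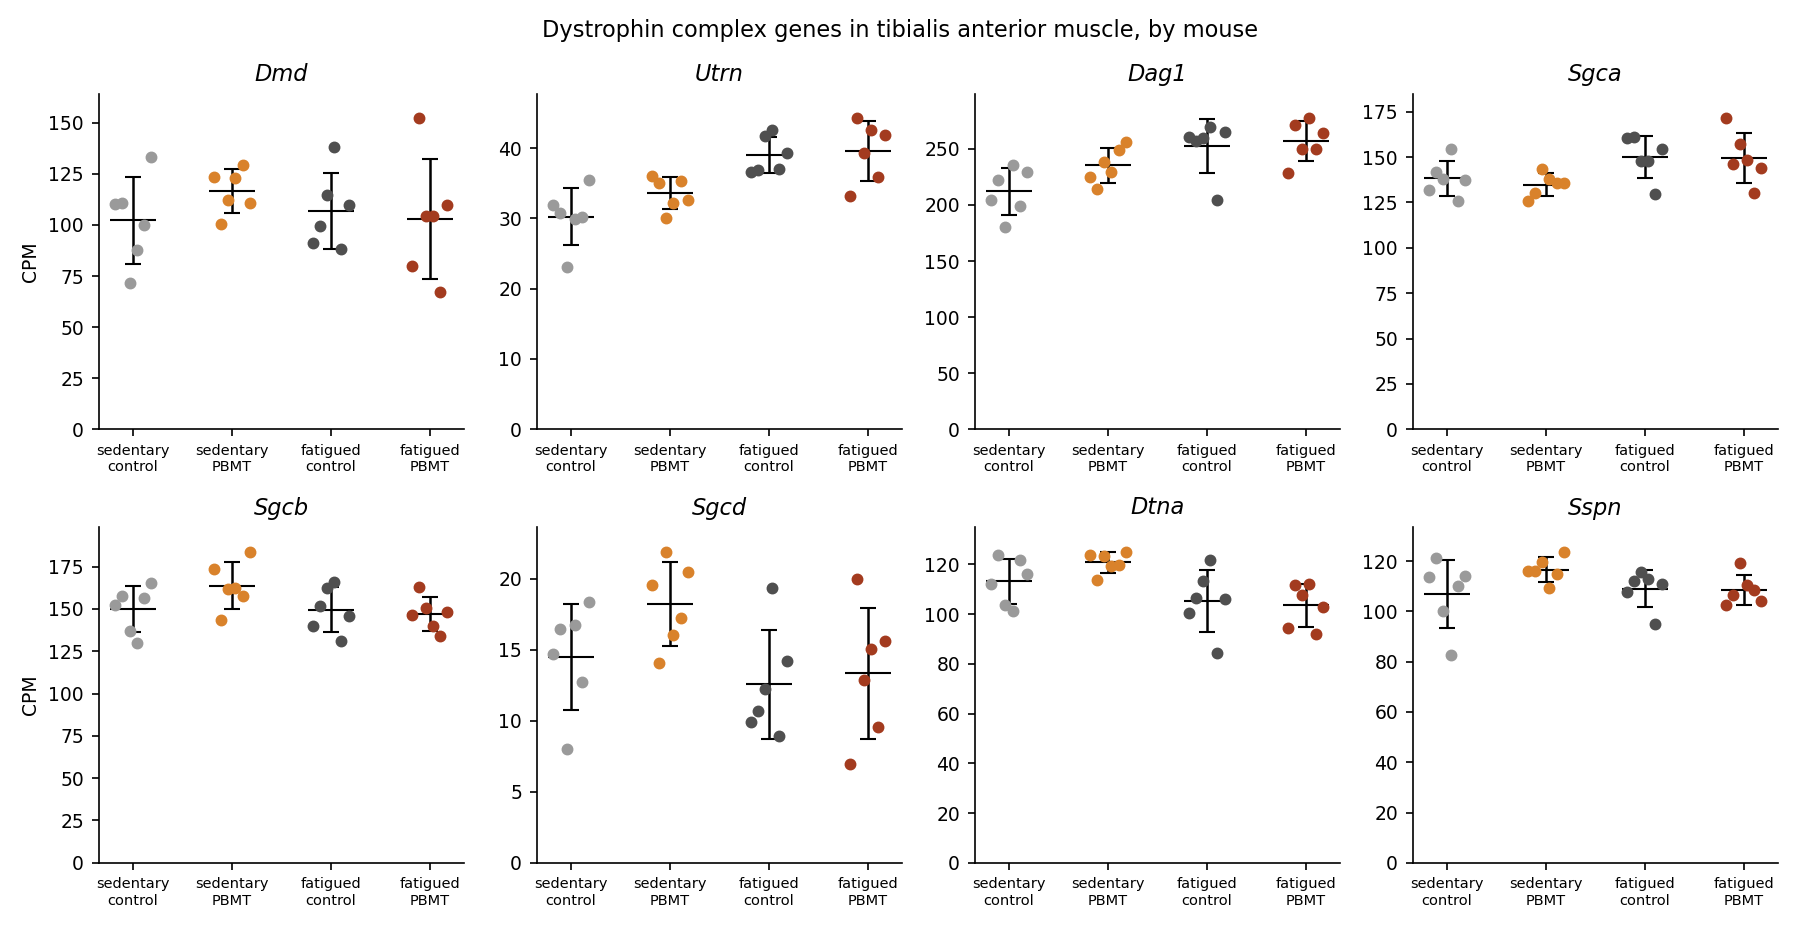
Levels in CPM (counts scaled by library size, vertical axes from 0) of the 8 dystrophin complex genes in each of 24 mice, by group on the horizontal axes. Points are mice, the wide line is the group mean and the bars are 1 SD (n = 6). Utrn in fatigued controls lies at 36.6 to 42.5 CPM, above all sedentary controls, whose highest is 35.5 CPM.

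The same question in fatigued muscle was answered by fatigued PBMT mice against fatigued controls. Dmd had 88.2, 104.6 and 138 CPM as lowest, median and highest in controls and 67.2, 104.3 and 152 CPM with PBMT. The PBMT mice held both ends of the range, with 1 above and 2 below all controls. The Dmd log2 fold change was -0.05 (SE 0.17, interval -0.43 to 0.32). Utrn had 36.6, 38.2 and 42.5 CPM in controls and 33.2, 40.6 and 44.2 CPM with PBMT, a log2 fold change of 0.02 (interval -0.14 to 0.18). Here too the PBMT mice lay on both sides of the controls, 2 above and 2 below.

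Dag1 had 204, 260 and 269 CPM in fatigued controls and 229, 257 and 277 CPM with PBMT. Fatigued control 5 lay apart at the low end, and the Dag1 log2 fold change was 0.02 (interval -0.13 to 0.18). Among the sarcoglycans, Sgca was at -0.01, Sgcb at -0.02 and Sgcd at 0.09 in log2 fold change. The Sgcd interval was the widest of the members, from -0.44 to 0.62, and its CPM ran from 8.90 to 19.4 in controls and from 6.98 to 19.97 with PBMT. Sgca ran from 130 to 161 CPM in controls and from 130 to 171 CPM with PBMT. Sgcb ran from 131 to 166 CPM in controls and from 134 to 163 CPM with PBMT. Dtna was at -0.02 in log2 fold change, with 84.5 to 122 CPM in controls and 92.1 to 112 CPM with PBMT. Sspn was at -0.01, with 95.02 to 116 CPM in controls and 102 to 119 CPM with PBMT. The fatigued groups overlapped in all 8 members, where 0.0274% of all genes did not overlap.

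In fatigued muscle 0 of 8 members were called at an adjusted p under 0.05 in edgeR, where 0% of 14574 genes were called. At an unadjusted p under 0.05 the count was again 0 of 8, against 1.58% of all genes, and DESeq2 gave 0 by either threshold. Of the members, 3 were higher and 5 lower with PBMT, with a median log2 fold change of -0.01 beside 0.00 over all genes, of which 52.0% were higher. Each member's interval includes 0, from -0.43 to 0.32 for Dmd and from -0.13 to 0.12 for Sspn. Leaving out single mice changed the sign of each of the 8 members at least once. Of the partners, Drp2 had the most negative log2 fold change at -0.38 (interval -0.91 to 0.15) and Dtnb the highest at 0.24. Sntb2 was at 0.13, Cav3 at 0.04, Sgce at -0.02, Nos1 at -0.09 and Sntb1 at -0.11, and 0 of 7 partners passed an unadjusted p under 0.05. Without a single mouse all 7 moved more than 1.5 times closer to 0 or across it, Dtnb to 0.00, Drp2 to -0.22 and Sntb1 to -0.00.

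**Figure D2:**
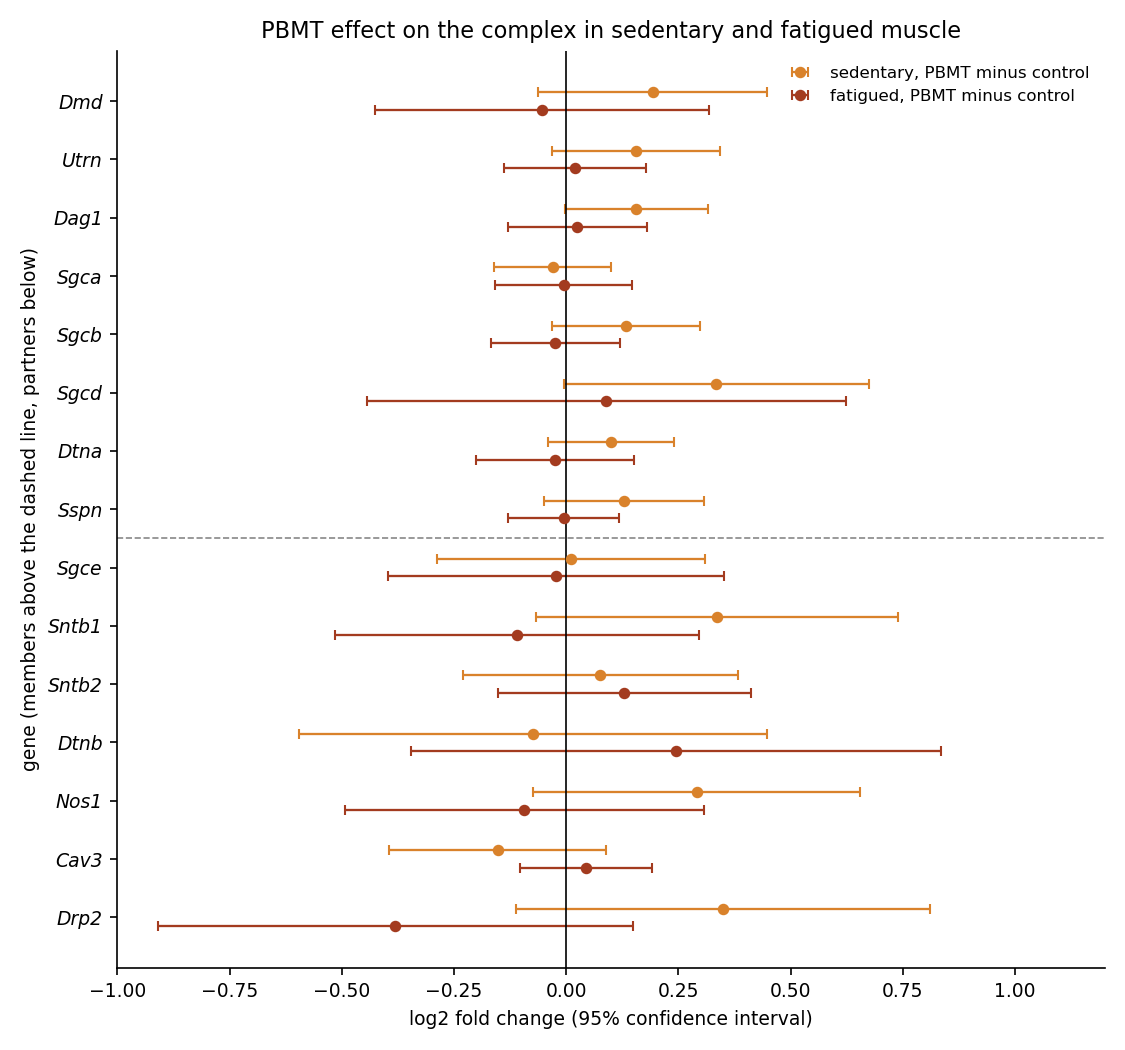
Log2 fold change with PBMT (horizontal axis, edgeR, bars are 95% confidence intervals) for the 8 members and, under the dashed line, 7 partners, in sedentary and in fatigued muscle (n = 6 mice per group). All intervals include 0, from 0.19 for Dmd in sedentary and -0.05 in fatigued muscle to 0.33 and 0.09 for Sgcd.

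The fit to all 24 mice asked whether PBMT acted differently in the fatigued and in the sedentary state. Its fatigued side carries the same difference in run time. Of the members, 0 of 8 passed at an adjusted p under 0.05 in edgeR, where 0.00662% of 15108 genes did, and the single gene called was Nfil3, named after its values were seen. At an unadjusted p under 0.05, 0 of 8 members passed against 4.40% of all genes, and DESeq2 called 0 with 0 at an unadjusted p. The difference (fatigued effect minus sedentary effect) was negative in 7 of 8 members, with a median of -0.13 beside 0.02 over all genes. It was positive in 53.7% of all genes. Over all genes it went with transcript length, at a Spearman's rho of -0.249 and a median of -0.11 at 8 kb and over. With the length trend removed the members' median was -0.12 beside -0.01 over all genes. For Dmd the difference was -0.24 (SE 0.22, interval -0.69 to 0.21) and for Sgcd it was -0.24 (interval -0.89 to 0.41). Without a single mouse it ran from -0.39 to -0.15 for Dmd and from -0.40 to -0.07 for Sgcd, and the Sgcd difference was -0.10 with the GC trend removed. Sgcb at -0.15, Utrn, Dag1 and Sspn each at -0.13 and Dtna at -0.12 had narrower intervals that also include 0, and without a single mouse Utrn, Sspn and Dtna fell to as little as -0.07, -0.07 and -0.08. Sgca was at 0.03, and it turned to -0.05 with the length trend removed and to -0.06 with the GC trend removed. Among partners, Drp2 had the largest difference, at -0.73 (interval -1.45 to -0.00, adjusted p = 0.946).

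The fatigued and sedentary mice were also compared with each other, first without PBMT, as a difference between the 2 projects. Utrn had 23.1, 30.4 and 35.5 CPM as lowest, median and highest in sedentary controls and 36.6, 38.2 and 42.5 CPM in fatigued controls. All 6 fatigued controls lay above all 6 sedentary controls. The Utrn log2 fold change was 0.37 (SE 0.083, edgeR adjusted p = 0.00295, higher in 6 of 6). Dag1 had 180.03, 214 and 236 CPM in sedentary controls and 204, 260 and 269 CPM in fatigued controls. Of the fatigued controls 5 lay above all sedentary controls, and fatigued control 5, at 204 CPM, lay within their range. The Dag1 log2 fold change was 0.25 (SE 0.074, edgeR adjusted p = 0.0179). Both genes remained past the threshold in 12 of 12 fits that left out 1 mouse each. Over all genes the log2 fold change between projects went with transcript length, at a Spearman's rho of 0.235 without PBMT and 0.066 after PBMT. With the trend on length removed, Utrn had a log2 fold change of 0.24 (adjusted p = 0.00738), whereas Dag1 had 0.16 and was no longer called (adjusted p = 0.152). With the trend on GC content removed, Utrn was at 0.36 and still called, and Dag1 at 0.20 was not (adjusted p = 0.108). Over the other alternatives apart from left-out mice, the Dag1 adjusted p ran from 0.00621 to 0.0213.

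These 2 of 8 members called without PBMT stand beside 18.6% of all 15108 genes, and the 1 of 8 without overlap (Utrn) beside 7.70%, so the members' counts are near those of other genes. In the other members the log2 fold change between projects was 0.06 for Dmd (interval -0.26 to 0.38), 0.12 for Sgca, -0.00 for Sgcb and -0.21 for Sgcd. With the GC trend removed Sgca was at 0.02 and Sgcd at -0.09, and without a single mouse Sgcd ran from -0.37 to -0.13. Dtna was at -0.10 and Sspn at 0.03 in the same comparison, and Dtna was at -0.20 (adjusted p = 0.0572) with the length trend removed and at -0.05 without fatigued control 5. Dmd and Sspn turned negative with the length trend removed, to -0.06 and -0.04, and Sgcb lay above 0 with DESeq2 or its size factors, without the filter and with the GC trend removed. Sntb1, which encodes beta-1-syntrophin, was lower in the fatigued controls, at 5.04 ± 1.26 CPM against 9.73 ± 2.01 CPM (SD, n = 6 each). All 6 fatigued controls lay below all sedentary controls for Sntb1, and its log2 fold change was -0.95 (SE 0.20, edgeR adjusted p = 0.00197). Of the 7 partners tested it was the only one called, apart from Cav3 with the GC trend removed (-0.22, adjusted p = 0.0468). As fitted, Cav3 was at -0.15 (edgeR adjusted p = 0.332). It was at -0.03 with the length trend removed and at -0.01 without sedentary control 4.

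After PBMT, the fatigued mice were compared with the sedentary PBMT mice. Utrn had 30.1, 33.9 and 36.0 CPM as lowest, median and highest in sedentary PBMT mice and 33.2, 40.6 and 44.2 CPM in fatigued PBMT mice. Of the fatigued PBMT mice 4 lay above all sedentary PBMT mice, and the groups overlapped. The Utrn log2 fold change was 0.24 (SE 0.083, edgeR adjusted p = 0.0358). Dtna had 114, 121 and 125 CPM in sedentary PBMT mice and 92.1, 105 and 112 CPM in fatigued PBMT mice. Every fatigued PBMT mouse lay below every sedentary PBMT mouse. The Dtna log2 fold change was -0.22 (SE 0.073, edgeR adjusted p = 0.0256, lower in 6 of 6).

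Both of these calls were sensitive to single mice. Utrn was called in 5 of 12 fits that left out 1 mouse, and it lost the call without fatigued PBMT 2, 3, 4 or 6 or sedentary PBMT 3, 4 or 6, at adjusted p of 0.0535 to 0.0877. Dtna was called in 4 of 12 such fits, and it lost the call without fatigued PBMT 1, 5 or 6 or sedentary PBMT 1, 3, 4, 5 or 6, at adjusted p of 0.0505 to 0.0746. The log2 fold changes without a mouse stayed between 0.21 and 0.29 for Utrn and between -0.25 and -0.19 for Dtna. Without the filter on low counts neither was called, at adjusted p of 0.0574 for Utrn and 0.0609 for Dtna. With the GC trend removed Utrn was not called either (adjusted p = 0.0929), while Dtna was (adjusted p = 0.0480). Over the remaining alternatives the adjusted p ran from 0.0137 to 0.0478 for Utrn and from 0.00443 to 0.0321 for Dtna.

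The 2 of 8 members called after PBMT stand beside 26.8% of all genes, and the 1 of 8 without overlap (Dtna) beside 11.2%. Of the other members, Dmd was at -0.18 (interval -0.50 to 0.14, and -0.32 to -0.08 without a single mouse) and Dag1 at 0.13 in log2 fold change. Sgca was at 0.15, Sgcb at -0.16, Sgcd at -0.45 and Sspn at -0.10. With the GC trend removed Dag1 and Sgca turned to -0.00 and -0.04, and Sgcd was at -0.19. Sgca was called without fatigued PBMT 5 (0.18, adjusted p = 0.0431), and Sgcb without sedentary PBMT 2 (-0.20, adjusted p = 0.0475) or with the length trend removed (-0.22, adjusted p = 0.0443). Sntb1 was again the only partner called, at -1.39 (SE 0.20, edgeR adjusted p = 2.1e-05), with 6 of 6 fatigued PBMT mice below all sedentary PBMT mice. Sntb2, at 0.35, was called without fatigued PBMT 1 (0.46, adjusted p = 0.00919) or with the GC trend removed (0.35, adjusted p = 0.0406), and Sgce with the GC trend removed (0.47, adjusted p = 0.0293). The comparisons with and without PBMT use different mice, while each shares its groups with the PBMT comparisons above.

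Marker lists of other cells and structures differed between the projects as well, and their part in the members' differences was not tested. Calls here are at an edgeR adjusted p under 0.05 and stand beside 18.6% of all genes called without PBMT and 26.8% after PBMT. In direction, 48.4% of all genes were higher in fatigued muscle without PBMT and 50.3% after PBMT. Basement membrane genes, whose laminins dystroglycan binds, were higher in fatigued muscle in 16 of 16 in both comparisons, with 9 called without PBMT and 14 called after PBMT. The median log2 fold change of this list was 0.56 and 0.71, and its most abundant gene per length was Col4a1, at 0.60 (adjusted p = 0.0961) and 0.92 (adjusted p = 0.00865). Their summed level was 1085 ± 175 CPM in sedentary controls, 970 ± 180.4 CPM in sedentary PBMT mice, 1583 ± 261 CPM in fatigued controls and 1637 ± 328 CPM in fatigued PBMT mice (SD, n = 6 each). Sedentary PBMT 2 lay apart there, at 1317 CPM with the next at 991 CPM, and without it the mean was 900 ± 66.8 CPM (SD, n = 5). Genes of sarcolemma repair were higher in 11 and lower in 2 of 13 in both comparisons, with 7 called higher without PBMT and 10 called higher and 2 called lower after PBMT, and Trim72 was the most abundant at 234 TPM. Integrin and costamere genes, a parallel link to the matrix, were higher in 13 of 16 without PBMT and 14 of 16 after PBMT, with 5 called higher and 1 called lower in each, and Des was the most abundant at 2463 TPM. Sedentary control 4 lay apart in the sum of this list, at 10443 CPM with the next control at 6466 CPM. Of 17 genes that glycosylate dystroglycan, 5 were higher and 12 lower without PBMT (1 called in each direction), and 7 were higher and 10 lower after PBMT (1 called higher and 3 called lower), with B3galnt2 the most abundant at 30.5 TPM.

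Among cell type lists, interstitial mesenchymal genes were higher in 6 of 7 without PBMT (1 called) and 7 of 7 after PBMT (6 called). Their sum was 842 and 713 CPM in sedentary controls and PBMT mice and 1268 and 1529 CPM in fatigued controls and PBMT mice. Fatigued PBMT 5 lay apart there, at 3196 CPM, and without it the fatigued PBMT mean was 1196 CPM, below that of the fatigued controls. Tendon genes were higher in 4 and 5 of 5 (1 and 2 called), with sums of 153, 157, 307 and 363 CPM in the same order of groups. The same mouse lay apart in this list, at 818 CPM, and without it the fatigued PBMT mean was 272 CPM. Myeloid genes were higher in 6 and 7 of 7 (0 and 5 called). Genes of the fast fiber list, which holds Acta1 and Ckm of both fiber types, were higher in 9 and 8 of 10 (5 and 3 called), with sums of 151745, 158970, 200662 and 195503 CPM. Here sedentary control 4 lay apart at 196155 CPM, within the range of the fatigued mice, with the next control at 151993 CPM, and fatigued control 5 at 167756 CPM, with the next at 199907 CPM. Slow fiber genes were higher in 6 and 7 of 7, with 1 called higher and 1 called lower (Myl3) without PBMT and 1 called higher after PBMT. Smooth muscle and pericyte genes were higher in 5 of 6 in each comparison (2 called), and endothelial genes in 7 and 6 of 8 (2 called higher in each, 1 called lower after PBMT). Neuromuscular junction genes, where utrophin is concentrated, were higher in 5 and 6 of 9, with 1 called higher and 1 called lower in each. Satellite cell genes were higher in 5 of 6 in each, with 1 called higher in each and 1 called lower after PBMT. Adipocyte genes were higher in 5 of 5 in each (0 and 1 called), Schwann cell genes in 8 and 2 of 8 (0 called) and erythrocyte genes in 1 of 5 in each (0 called). Of the keratinocyte list only Krt10 had enough counts to be tested. Among PBMT mice it was lower in fatigued than in sedentary muscle (log2 fold change -1.52, edgeR adjusted p = 0.00493). Its call was not tested without single mice, and sedentary PBMT 4 lay apart in the sum of that list, at 27.9 CPM with the next at 9.79 CPM and the other 4 at 1.61 to 2.54 CPM. The sedentary PBMT mean was 7.69 CPM, and 3.65 CPM without that mouse, beside 2.89 CPM in sedentary controls, and Krt1 was at 0 in all fatigued PBMT mice.

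The lists linked to the complex were also read in the PBMT comparisons themselves, where no listed gene was called by edgeR in either state or in the difference. Over all genes, 49.6% were higher with PBMT in sedentary and 52.0% in fatigued muscle. Of the genes that glycosylate dystroglycan, B3galnt2 had the smallest unadjusted p in both states, with log2 fold changes of 0.20 in sedentary and 0.18 in fatigued muscle. Basement membrane genes were higher with PBMT in 4 of 16 in sedentary and 11 of 16 in fatigued muscle, and the gene with the smallest p was Col6a3 at -0.25 and Lamc1 at 0.13. For costamere genes it was Vcl at 0.10 and Tln1 at -0.08, and for repair genes Ehd1 at -0.23 and 0.08. Of the list of long sarcomere and giant transcripts, which was fixed by name, 11 of 12 were higher in sedentary muscle. Its median there was 0.17, and the gene with the smallest p was Syne1 at 0.38 (edgeR adjusted p = 0.506). In fatigued muscle 6 of 12 were higher, and that gene was Cacna1s at -0.05.

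In sedentary muscle, 0 of 7 myeloid genes (median log2 fold change -0.55) and 0 of 7 interstitial mesenchymal genes (median -0.18) were higher with PBMT, against 7 of 8 Schwann cell genes (median 0.19), 7 of 10 of the fast fiber list (0.05), 3 of 7 slow fiber genes (-0.19) and 3 of 9 neuromuscular junction genes (-0.06). In fatigued muscle the counts were 6 of 7 myeloid (0.22), 7 of 7 interstitial mesenchymal (0.22), 0 of 8 Schwann cell (-0.40), 1 of 10 fast fiber (-0.04), 7 of 7 slow fiber (0.44) and 5 of 9 neuromuscular junction (0.00). The counts in sedentary and fatigued muscle were 5 and 6 of 8 in endothelium, 2 and 1 of 6 in smooth muscle and pericyte, 3 and 5 of 5 in tendon, 4 and 3 of 6 in satellite cell, 2 and 3 of 5 in adipocyte and 2 and 3 of 5 in erythrocyte. Sedentary control 1 had the highest myeloid sum of its group, at 108 CPM with the next control at 73.1 CPM. Without it the sedentary log2 fold change of the myeloid gene Csf1r was -0.39 in place of -0.55. Fatigued PBMT 5 had the highest myeloid, interstitial mesenchymal and tendon sums of its group, at 151, 3196 and 818 CPM. The next myeloid sum was 91.5 CPM. Without that mouse the interstitial mesenchymal and tendon means were 1196 and 272 CPM, below the 1268 and 307 CPM of fatigued controls. In the Schwann cell list fatigued control 1 was highest, at 244 CPM, beside a control mean of 139 CPM. Sedentary PBMT 6 was highest of its group in that list, at 240 CPM with the next at 135 CPM. The sedentary means were 126 CPM with PBMT and 109 CPM in controls.

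Single genes need not follow their list. For the cell type lists, the log2 fold changes with the smallest p in sedentary and in fatigued muscle, in that order, were as follows. In fibers they were -0.32 for Myh2 and -0.08 for Actn3 (fast), and 0.12 for Atp2a2 and 0.58 for Myl3 (slow). In vessels they were 0.45 for Kdr and 0.11 for Pecam1 (endothelium), and -0.18 for Acta2 and -0.12 for Rgs5 (smooth muscle and pericyte). In nerve they were 0.30 and -0.55 for Ncmap (Schwann cell), and 0.31 and 0.66 for Musk (neuromuscular junction). In connective tissue they were -0.26 and 0.22 for Ly6a (interstitial mesenchymal), and 0.08 for Fmod and 0.22 for Scx (tendon). In other cells they were -0.55 for Csf1r and 0.32 for Cd68 (myeloid), 0.46 for Pax7 and 0.13 for Chodl (satellite cell), -0.19 for Lep and 0.37 for Cidec (adipocyte), -0.25 for Hbb-bt and 0.09 for Alas2 (erythrocyte), and 0.97 and -0.09 for Krt10 (keratinocyte). Of the 18 genes named in each state for these and the linked lists, leaving out a single mouse took 10 in sedentary and 14 in fatigued muscle more than 1.5 times closer to 0 or across it, among them sedentary Krt10 to 0.24 without sedentary PBMT 4 and Hbb-bt to -0.02 without sedentary control 4. The most abundant gene per length was Cdh5 at 61.0 TPM in endothelium, Rgs5 at 254 in smooth muscle and pericyte and Rapsn at 38.7 TPM in neuromuscular junction. It was Col1a1 at 133 TPM in interstitial mesenchymal, Fmod at 94.5 in tendon, Lyz2 at 67.6 in myeloid, Cdh15 at 13.9 in satellite cell, Fabp4 at 123 in adipocyte, Hbb-bs at 156 in erythrocyte and Krt10 at 3.16 TPM in keratinocyte.

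The members were then compared with each other between mice, as deviations of log2 CPM from the mean of the group, which removes group and project. Of the 28 pairs, 26 had a Pearson r above 0, 15 passed at an adjusted p under 0.05 by permutation over the 28 pairs, and 14 passed by Spearman's rho. Within both projects, 11 pairs had an r above 0.5. Dmd and Utrn gave r = 0.818 (permutation p = 2e-05, adjusted p = 0.000187) and rho = 0.847 (permutation p = 1e-05, the smallest the permutations can give, adjusted p = 0.00028). For this pair r was 0.813 in the sedentary and 0.875 in the fatigued project, and 0.839 without the 2 mice farthest from the median of Dmd. Dmd and Sgcd gave r = 0.825 (permutation p = 5e-05, adjusted p = 0.00035) and rho = 0.744 (adjusted p = 0.00259), with 0.687 and 0.897 within projects and 0.810 without 2 mice. Sgcb and Dtna gave r = 0.796 (permutation p = 1e-05, the smallest the permutations can give, adjusted p = 0.00014) and rho = 0.786 (adjusted p = 0.00028), with 0.846 and 0.828 within projects and 0.734 without 2 mice. In each of these 3 pairs, mice high for 1 gene within their group were high for the other, in both projects.

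Sgca stood apart from the rest as fitted. Its r with Dmd was 0.01 (permutation p = 0.972, adjusted p = 0.984, rho -0.16), with -0.18 and 0.10 within projects and -0.20 without 2 mice. None of its 7 pairs passed. Alternatives on length and GC content, added after the data were seen, changed which pairs passed. With the length trend removed 15 pairs passed by r, 11 of them shared with the 15 above, but only 7 by rho in place of 14, and Utrn passed in 1 of its 7 pairs by r and in 0 by rho, in place of 4 by either. For Dmd and Utrn, r was 0.475 (adjusted p = 0.0245) in place of 0.818 in that setting, and rho was 0.412 (adjusted p = 0.133), so that this pair no longer passed by rho, while by r Dmd and Sgcd stood at 0.760 and Sgcb and Dtna at 0.800. Sgca passed in 3 of its 7 pairs by r and 1 by rho with the length trend removed, with an r of 0.813 to Dag1 in place of 0.358. With the GC trend removed 22 pairs passed by r and by rho, all 15 were among them, and Sgca passed in 4 of its 7 pairs by both.

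How much each member moves with long transcripts in general was measured against the median deviation of 799 genes with a transcript of 8 kb or over, Dmd and Utrn among them. These 8 relations were added after the data were seen. Dmd gave r = 0.897 (permutation p = 1e-05, the smallest the permutations can give, adjusted p = 4e-05) and rho = 0.930 (adjusted p = 8e-05), with 0.935 and 0.885 within projects and 0.890 without 2 mice. Fatigued PBMT 2 was highest for Dmd, at 0.61 above its group mean, and its long transcripts were 0.14 above theirs. Fatigued PBMT 5 was lowest for Dmd, at -0.57, and sedentary control 3 next, at -0.49, with long transcripts at -0.10 and -0.18. Sgcd gave r = 0.864 (adjusted p = 4e-05), Utrn 0.814 (adjusted p = 0.0001) and Dtna 0.761 (adjusted p = 8e-05), each by permutation, with rho of 0.783, 0.846 and 0.772. Sgcb at 0.722 and Dag1 at 0.660 also passed, with rho of 0.685 and 0.584. Sspn at 0.492 passed by r (adjusted p = 0.0330) but not by rho (0.442, adjusted p = 0.0572), and Sgca, at -0.17, did not pass (adjusted p = 0.484).

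**Figure D3:**
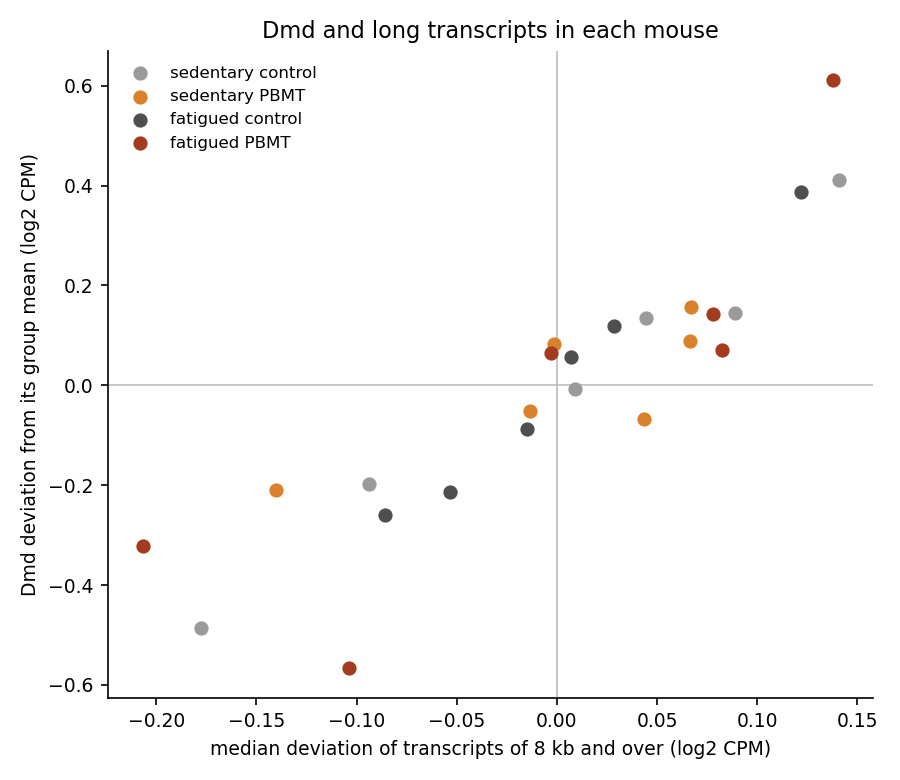
Deviation of Dmd from its group mean (vertical axis, log2 CPM) against the median deviation of 799 genes with transcripts of 8 kb and over (horizontal axis, log2 CPM), each point 1 of 24 mice colored by group. Pearson r was 0.897 over all mice, and fatigued PBMT 2 (0.61) and fatigued PBMT 5 (-0.57) are the ends for Dmd.

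Over the 14020 genes tested in both projects, those most like Dmd by Pearson r of these deviations were Cep350 (0.941), Fyco1 (0.933), Usp9x (0.933), Neb (0.933) and Trip12 (0.930), over 24 mice and as a description. Their longest transcripts have 13.3, 7.95, 11.9, 22.5 and 9.63 kb. Of the members, Sgcd ranked 150 in likeness to Dmd, Utrn 174, Dtna 383 and Sgcb 455, followed by Dag1 at 1166, Sspn at 2275 and Sgca at 6148. The median r to Dmd was -0.06 over all genes and 0.45 over the 765 of them with transcripts of 8 kb or over. Many genes outside the complex were therefore closer to Dmd between mice than any other member was.

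Since several members moved together, their promoters were read from RefSeq (GRCm38.p6), as windows of 300 bases around annotated starts. Windows were listed for 7 members, 10 in all, and Dtna has no entry. The motifs were chosen after the Dmd window was read: the CArG box, bound by serum response factor, and the E-box CANNTG, which reads the same on both strands and was searched on both. The CArG box was also searched on both strands, and the motifs were counted independently of each other. A CArG box was found in 1 of 10 member windows, that of Dmd, and in 1.63% of all 32851 windows. An E-box was found in 7 of 10 member windows and in 72.3% of all windows, with 7 in the Utrn window at chr10:12861686-12861985 (minus strand) and a mean of 1.39 over all. A match describes letters in the window and is not shown to be a binding site. The windows of Dmd are printed to show the separate starts whose reads a single gene count adds up, the first at chrX:82948620-82948919 and the next at chrX:85048045-85048344, both on the plus strand, with the CArG box in capitals.
Dmd, chrX:82948620-82948919: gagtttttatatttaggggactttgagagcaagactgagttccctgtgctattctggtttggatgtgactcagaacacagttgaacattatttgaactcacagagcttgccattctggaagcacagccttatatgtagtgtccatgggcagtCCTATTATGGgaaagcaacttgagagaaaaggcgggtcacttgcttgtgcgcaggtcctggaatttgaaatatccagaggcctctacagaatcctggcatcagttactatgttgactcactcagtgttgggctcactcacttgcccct
Dmd, chrX:85048045-85048344: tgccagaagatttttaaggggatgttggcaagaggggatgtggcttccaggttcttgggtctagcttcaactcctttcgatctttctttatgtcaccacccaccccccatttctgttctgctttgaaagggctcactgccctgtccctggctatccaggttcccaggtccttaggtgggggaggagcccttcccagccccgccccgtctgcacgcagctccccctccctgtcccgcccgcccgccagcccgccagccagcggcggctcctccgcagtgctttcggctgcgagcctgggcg
The first window holds 3 E-boxes besides the CArG box, and the next holds neither motif.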

How the data were processed

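The values are counts per Ensembl gene and mouse, deposited by the authors without normalization. The authors' processing notes list GRCm38, Trimmomatic, STAR 2.7.1a, Picard 2.20.4, StringTie 2.0.4, featureCounts 1.6.0 and HTSeq, without their roles, strand setting or annotation, and whether reads or pairs were counted is not given in the sources used here. Of 55487 identifiers 55227 matched GENCODE M21. Tests used R 4.3.3 and edgeR 4.0.16 (TMM, filterByExpr at a minimum count of 10, robust quasi-likelihood), within each project for PBMT and over 24 mice for the other comparisons, adjusted by Benjamini-Hochberg over every gene tested, threshold 0.05. Log2 CPM used a prior count of 2. The test was tested on simulated data. Profiles were compared between all mice, and no duplicates were found. Correlations used 100000 permutations of mice within groups. TPM was computed here from union exon length. Alternatives were DESeq2 1.42.0, its size factors, no filter, removal of length or GC trends (loess, span 0.3), the replicate block, all 24 mice in a single model, the longest transcript, and leaving out each mouse.

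Named genes are the members, the tested partners, from each other list the gene called or with the smallest p in each PBMT comparison and the most abundant gene, and the 5 genes most like Dmd. The members and lists were chosen with earlier results of these data known. Some names outside this rule (Ccn1, Egr1, Cited2, Nfil3, Krt1 and the overlapping gene) were chosen after their values were seen. The order of levels by project, the ratios to Dmd per longest transcript other than that of Utrn, the pairs passing by rho with a trend removed, the list sums without the mouse lying apart (Dixon's rule) and the counts of moves without a mouse were added after the values were seen. A few listed genes are not reported here. Histology and treadmill data were not analyzed here.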

Additional observations from a re-analysis of the deposited data

Results flagged for a closer look

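In 5 of 60 groups of 6 mice, over 15 genes of the complex and its partners, 1 mouse lay far from the others of its group, where chance gives about 1 group in 20. Of the members, this was Dag1 in fatigued control 5, at 204 CPM, with the next at 257 CPM and the highest at 269 CPM. Sedentary control 4 lay apart in 2 partners. Its Cav3 was 68.5 CPM with the next at 46.4 CPM, and its Sntb2 was 3.71 CPM with the next at 6.30 CPM. Sgce in fatigued PBMT 5 was 10.5 CPM, with the next at 5.45 CPM. Dtnb in fatigued PBMT 4 was 2.00 CPM, with the next at 1.23 CPM.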

How the results depend on the processing

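No member was called in either PBMT comparison or in their difference under any setting tried or without any mouse. The number of genes called in sedentary muscle moved from 4 to 16 without the filter, 11 with the replicate block, 12 with the length trend removed, 16 with the GC trend removed, 60 with DESeq2 and 1 in the single model of 24 mice. Without a mouse it ran from 2 to 20, namely 2 without sedentary control 1, 2 or 6, 18 without sedentary control 4, 10, 7 and 20 without sedentary PBMT 2, 4 and 5. In fatigued muscle it was 1 with the replicate block and 2 with DESeq2, in place of 0. The replicate block treats mice with the same replicate number as a pair, but the correlation of their deviations was -0.07 to 0.07 in the sedentary and -0.08 to 0.33 in the fatigued project. The same number was the best match for 1 of 6 mice in the sedentary and 3 of 6 in the fatigued project, and whether the numbers pair mice was not tested further. For the difference it ran from 1 to 3 without a mouse, with 3 without sedentary PBMT 2. Members called without PBMT went from 2 to 1 with the length trend removed and to 1 with the GC trend removed. Members called after PBMT went from 2 to 0 without the filter, to 1 with the GC trend removed and to 3 with the length trend removed, and ran from 0 to 3 without a mouse. The cause was not tested.

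The following log2 fold changes changed sign. In sedentary muscle, Sgca was 0.0262 with the length trend removed and 0.0381 with the GC trend removed, Sgce was -0.00713 with the replicate block, -0.0109 with the length trend removed and -0.103 with the GC trend removed, and Sntb2 was -0.0136 with the length trend removed. In fatigued muscle, Dag1 was -4.35e-05 with the GC trend removed. For the difference, Sgca was -0.0496 with the length trend removed and -0.0594 with the GC trend removed, and Sgce was 0.0754 with the GC trend removed. Without PBMT, the length trend removed gave Dmd -0.0625, Sspn -0.0377 and Nos1 -0.0978. The GC trend removed gave Nos1 -0.0375 and Sgcb 0.0396 there, and Sgcb was also 0.00347 with DESeq2 size factors, 0.0151 without the filter and 0.00641 with DESeq2. After PBMT, the GC trend removed gave Dag1 -0.00186, Sgca -0.0364 and Cav3 -0.131. The cause was not tested.

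Leaving out single mice changed the sign of these log2 fold changes, given as lowest and highest. In sedentary muscle, Sgce ran from -0.100 to 0.0626, Sntb2 from -0.0402 to 0.121, Dtnb from -0.228 to 0.0415, Fmod from -0.0178 to 0.267 and Lep from -0.454 to 0.0924. In fatigued muscle, Dmd ran from -0.198 to 0.0424, Utrn from -0.0155 to 0.0651, Dag1 from -0.0286 to 0.0560, Sgca from -0.0479 to 0.0297, Sgcb from -0.0583 to 0.00784, Sgcd from -0.0609 to 0.256, Dtna from -0.0799 to 0.0201 and Sspn from -0.0414 to 0.0117. Sgce there ran from -0.255 to 0.0320, Nos1 from -0.190 to 0.0253, Cd68 from -0.0878 to 0.462, Cidec from -0.198 to 0.668 and Alas2 from -0.0647 to 0.242. For the difference, Sgca ran from -0.0176 to 0.0625, Sgce from -0.265 to 0.0723 and Sntb2 from -0.00700 to 0.167. Without PBMT, Dmd ran from -0.0223 to 0.155, Sgcb from -0.0430 to 0.0321, Sspn from -0.0387 to 0.0664, Dtnb from -0.199 to 0.0791 and Nos1 from -0.102 to 0.106. After PBMT, Sgce ran from -0.00513 to 0.343.

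Of all log2 fold changes outside left-out mice, those above included, 225 of 231 in sedentary and 230 of 231 in fatigued muscle kept their direction and side of the threshold, as did 87 of 90 for the difference, 79 of 90 without PBMT and 81 of 90 after PBMT. With the longest transcript in place of all exons, the ratio to Dmd was 0.410 in place of 0.474 for Utrn, 12.0 in place of 19.1 for Sgca and 2.51 in place of 1.49 for Dtna, and the levels of 6 of 8 members moved by more than their SD. With DESeq2 size factors 15 pairs of members passed, as with TMM. Added after the data were seen, the removal of a length or GC trend gave 15 and 22 pairs. Sntg2, with 1 to 19 counts, and Sgcz and Sntg1, with 0, had too few counts to be tested.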
